A study of Mus musculus with 6 samples.

Results

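Isx, Cdx2 and Osr2 are genes of DNA-binding transcription factors, and each has a single row in a table of raw read counts from mouse colon. They are 3 of 2033 rows, found by their reference gene symbol, and all of them were among the 1608 rows with counts high enough for a test. The trio was chosen by the difference of its counts between the PFOA and control libraries, which was already known, so those counts are given as a description and no p-value is attached to them. RNA sequencing was done on colon of mice given perfluorooctanoic acid (PFOA), a persistent fluorinated surfactant, over a long period, and on colon of control mice, with 3 libraries in each group. The labels mention freezing tissue of 6 mice per group, but not which mice a library holds, nor the strain, age, sex, dose, duration or stretch of colon, so the spread between libraries may be biological or technical.

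Cdx2 is the caudal-type homeobox factor that sets and keeps intestinal identity in the gut lining, where its loss in mice lets stomach-like features appear. Isx, the intestine-specific homeobox factor, is a paired-type homeodomain protein of the intestinal epithelium that has been placed downstream of Cdx2 in mice. It is induced by retinoic acid and represses Bco1, which encodes the enzyme that cleaves beta-carotene into vitamin A, and the lipid and carotenoid receptor gene Scarb1. Osr2 is a zinc finger factor of the odd-skipped family, studied in the mesenchyme of the embryonic palate, limb joints and kidney in mice, and Osr1 is its closest relative.

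The windows around the start sites of Cdx2, Isx and Bco1 are shown first, because Cdx2 and Isx were both higher in PFOA and Bco1 is the known target that Isx represses. Each window runs from 250 bases before to 50 bases after the start site, 5′ to 3′ on the gene's own strand, as given by RefSeq for build GRCm38.p6; 2 of the 3 factors, Cdx2 and Isx, matched an entry. Capitals mark every match, on either strand, to a CDX motif (TTTATNG), the homeodomain core (TAAT), a paired-type homeodomain palindrome (TAATNNNATTA, which contains that core on both strands), the octamer (ATGCAAAT), a CCAAT box (CCAAT) or the odd-skipped motif (ACAGTAGC).
Cdx2 (chr5:147307200-147307499, minus strand): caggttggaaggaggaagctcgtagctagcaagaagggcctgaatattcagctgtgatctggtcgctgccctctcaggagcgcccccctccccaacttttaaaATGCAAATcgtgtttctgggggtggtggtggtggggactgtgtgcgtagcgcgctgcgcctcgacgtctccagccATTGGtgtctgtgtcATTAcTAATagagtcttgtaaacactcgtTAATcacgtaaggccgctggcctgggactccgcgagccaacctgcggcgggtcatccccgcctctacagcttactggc
Isx (chr8:74872924-74873223, plus strand): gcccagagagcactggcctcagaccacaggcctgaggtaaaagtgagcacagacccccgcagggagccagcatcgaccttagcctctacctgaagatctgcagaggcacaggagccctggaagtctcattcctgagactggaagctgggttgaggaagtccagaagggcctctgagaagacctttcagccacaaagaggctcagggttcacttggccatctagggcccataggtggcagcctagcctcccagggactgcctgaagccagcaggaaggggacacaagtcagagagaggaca
Bco1 (chr8:117095615-117095914, plus strand): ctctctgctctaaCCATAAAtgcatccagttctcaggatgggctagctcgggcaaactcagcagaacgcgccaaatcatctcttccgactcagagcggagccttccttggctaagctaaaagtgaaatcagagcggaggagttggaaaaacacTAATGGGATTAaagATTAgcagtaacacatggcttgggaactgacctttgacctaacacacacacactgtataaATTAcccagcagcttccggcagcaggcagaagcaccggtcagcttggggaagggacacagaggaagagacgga

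The Cdx2 window held the octamer, beginning 147 bases before the start site, a CCAAT box on the opposite strand and 3 copies of the homeodomain core. The octamer was present in 1.74% of all 32851 promoter windows of this length, the CCAAT box in 37.4% and the core in 58%. The Isx window held none of the 6 motifs. In the Bco1 window the paired-type palindrome stood 97 bases before the start site, a motif found in 0.487% of all windows, and a CDX motif stood 237 bases before it, a motif found in 10.9%. Counted per gene with a single symbol, the CDX motif was present for 14% of the genes higher in PFOA, for 15.5% of the genes lower in PFOA and for 12.5% of all genes. These matches describe letters in short windows and show no binding. The counted rows of Isx and Cdx2 begin 693 and 321 bases upstream of the annotated gene starts, so both windows lie inside those rows. Whether the windows hold the start sites of the counted transcripts is not known here.

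The table that holds the 3 rows lists only genes that differ between PFOA and control, which limits what any count of calls can say. Judged by their mean counts, 1035 rows were higher and 998 lower in PFOA, and none lay between log2 ratios of -1.08 and 0.92. The edgeR quasi-likelihood test called 100% of the tested rows at an adjusted p under 0.05 (largest adjusted p = 0.0408), with 50.0% higher and 50.0% lower in PFOA, and in 97.1% of all rows the normalised values of the groups did not overlap. A call for a gene named below therefore restates its direction, and nothing is known here of genes that have no row. Because the rows were already selected for a difference, their adjusted p-values give no rate of false calls. Where a call is said to end, its adjusted p passed 0.05 in that fit, which only describes how the value depends on a library or setting. Listed counts summed to between 2136897 and 2269892 in the PFOA libraries and between 1771120 and 2155472 in the control libraries, and sequencing depth is unknown. CPM values are counts scaled to a library's listed total, adjusted by the trimmed mean of M-values (TMM).

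Cdx2 had 4617, 3549 and 4066 counts in PFOA replicates 1, 2 and 3, against 619, 1313 and 868 counts in control replicates 1, 2 and 3. Every PFOA library lay above every control library. Normalised, Cdx2 averaged 2014 ± 415 CPM in PFOA and 444 ± 172 CPM in control (SD, n = 3 each). The ratio of these means was 4.54 and the fitted log2 fold change of PFOA over control was 2.18 ± 0.33 (SE, n = 3 per group). The lowest PFOA library stood 2.63-fold above the highest control library, a narrower gap than for Isx or Osr2.

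Isx had 11005, 17144 and 14436 counts in PFOA replicates 1, 2 and 3, against 67, 822 and 237 counts in control replicates 1, 2 and 3. It averaged 6901 ± 1095 CPM in PFOA and 179 ± 193 CPM in control (SD, n = 3 each), a ratio of means of 38.5. The PFOA libraries were close together, within 1.37-fold of each other, whereas the control libraries spanned 12.2-fold, and the groups did not overlap. The fitted log2 fold change was 5.27 ± 0.88 (SE, n = 3 per group). Its size rests on control replicate 2, the control library with the highest Isx count, without which it was 6.57 ± 0.66. It was 4.63 without control replicate 1, where Isx was lowest.

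Osr2 had 1363, 2179 and 3251 counts in PFOA replicates 1, 2 and 3, against 35, 13 and 13 counts in control replicates 1, 2 and 3. The control counts were low, and every PFOA library lay far above them. Osr2 averaged 1091 ± 397 CPM in PFOA and 9.75 ± 6.34 CPM in control (SD, n = 3 each), a ratio of means of 112. The fitted log2 fold change was 6.80 ± 0.55 (SE, n = 3 per group), and it lay between 6.43 and 7.34 as each library was left out in turn. In these bulk libraries, more cells of a type and more RNA per cell cannot be told apart, for Osr2 or any other gene here.

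Ordered by fitted log2 fold change among the 1608 tested rows, Osr2 stood at rank 18, Isx at rank 39 and Cdx2 at rank 271, against a median of 1.71 over the rows higher in PFOA. The lowest PFOA library exceeded the highest control library 42.8-fold for Osr2, 14.8-fold for Isx and 2.63-fold for Cdx2.

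**Figure D1:**
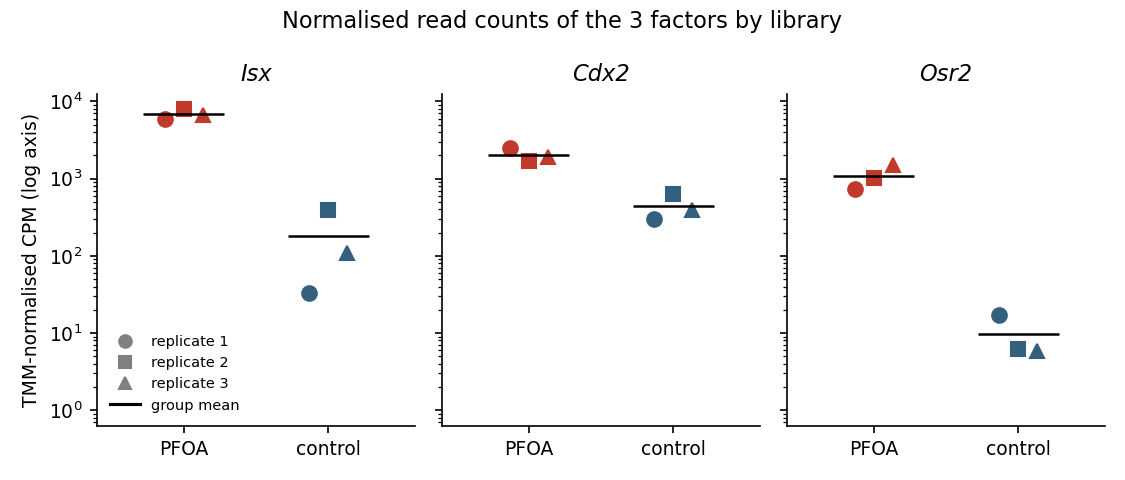
TMM-normalised CPM of Isx, Cdx2 and Osr2 on a log axis, with PFOA libraries in red left of control libraries in blue, 1 marker shape per replicate number and a line at each group mean (n = 3 each). The groups do not overlap for any of the 3 genes, and the control libraries of Isx spread over 12.2-fold.

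The 3 rows differ in what the counting covered. The Cdx2 row (chr5:147298468-147307591, mm10, minus strand) has a length of 8607 bases within a span of 9124 bases and reaches 2337 bases past the annotated 3′ end of the gene. The Isx row (chr8:74872480-74907982, mm10, plus strand) has a length of 35356 bases within a span of 35503 bases, so that it includes almost all intronic sequence, and it reaches 14476 bases past the annotated end. The GENCODE M21 exons of Isx cover 1793 bases and those of Cdx2 2261 bases. The Osr2 row (chr15:35296059-35303305, mm10, plus strand), at 3662 bases, is close to its 3623 annotated exon bases. All 3 rows are labelled protein-coding and carry identifiers of assembled loci.

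The order of the 3 levels depends on which length is used. Per kilobase of row length, the PFOA means were 298 CPM for Osr2, 234 CPM for Cdx2 and 195 CPM for Isx. Per kilobase of annotated exon, they were 3849 CPM for Isx, 891 CPM for Cdx2 and 301 CPM for Osr2, which is the opposite order. In control, Cdx2 was highest on both scales, at 51.5 CPM per kilobase of row length and 196 CPM per kilobase of exon, and Osr2 was lowest on both, at 2.66 and 2.69 CPM. Control Isx lay between them, at 5.07 CPM per kilobase of row length. Which bases of the long Isx row the reads came from cannot be read from the table, and each fold change above compares a row with itself.

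Ratios between the factors within a library do not depend on how libraries are scaled. The count ratio of Isx to Cdx2 was 2.38, 4.83 and 3.55 in PFOA replicates 1, 2 and 3, against 0.108, 0.626 and 0.273 in control replicates 1, 2 and 3. Isx counts exceeded Cdx2 counts in every PFOA library and were below them in every control library. On the log2 scale the ratio averaged 1.78 ± 0.51 in PFOA and -1.92 ± 1.26 in control (SD, n = 3 each), a difference of 3.70. The log2 ratio of Osr2 to Cdx2 averaged -0.93 ± 0.75 in PFOA and -5.58 ± 1.29 in control, a difference of 4.65, again without overlap.

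Isx and Osr2 did not separate from each other in this way. Their log2 ratio averaged 2.71 ± 0.49 in PFOA and 3.66 ± 2.53 in control (SD, n = 3 each), and the PFOA values lay inside the control range. The difference of -0.95 turned to 0.18 when control replicate 2 was left out, so no direction can be given for it. The spread in control came from opposite movements, since control replicate 1 had the fewest Isx counts and the most Osr2 counts, 67 and 35, while control replicate 2 had 822 and 13.

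**Figure D2:**
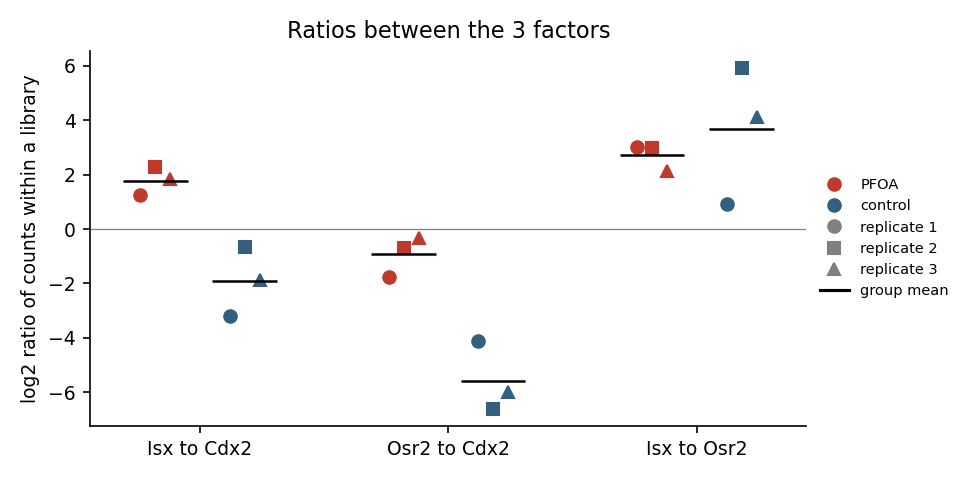
log2 ratio of the counts of 2 factors within each library (0.5 added to each count), PFOA in red left of control in blue, with 1 marker shape per replicate number and a line at each group mean (n = 3 each). Isx to Cdx2 and Osr2 to Cdx2 are higher in every PFOA library, while for Isx to Osr2 the PFOA values fall between the lowest and the highest control value.

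The control libraries differed among themselves more for Isx than for most rows of its kind. Among the 231 tested rows that were higher in PFOA and averaged at least 100 CPM in control, the highest control library exceeded the lowest by a median of 1.38-fold. For Isx this was 12.2-fold, reached by 1 of the 231 rows, Isx itself, and for Cdx2 it was 2.11-fold. Both factors were highest in control replicate 2 and lowest in control replicate 1, and this order was shared by 25.2% of the tested rows and by 40.3% of the 231 rows. The order was looked at after the values were seen, and 3 libraries allow no test of it.

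Some genes of the gut epithelium, picked after their values were seen, showed that order, and a gene of posterior body identity showed its reverse. Other epithelial genes did not share it. The peptide transporter gene Slc15a1 showed the reverse order in control, and the cytochrome P450 gene Cyp2c65 showed neither. Fabp2, an enterocyte fatty acid binding protein, had 9290, 4755 and 4402 counts in PFOA replicates 1, 2 and 3, against 134, 874 and 314 counts in control replicates 1, 2 and 3. Car1, a carbonic anhydrase of the large bowel epithelium, spanned 2.96-fold in control, and Slc10a2, the apical bile acid transporter, spanned 3.27-fold. Hoxb13, a homeobox gene of the hindgut, had 0, 6 and 3 counts in the PFOA libraries and 9884, 5730 and 7988 counts in the control libraries, so that in control it was highest where Isx was lowest. Cnn1, a smooth muscle calponin, ran with Hoxb13 in control, spanning 2.32-fold, and Grem1, a fibroblast BMP antagonist, spanned 1.11-fold. The part of the colon sampled is not labelled, and a difference in position between libraries and an effect of PFOA cannot be told apart.

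**Figure D3:**
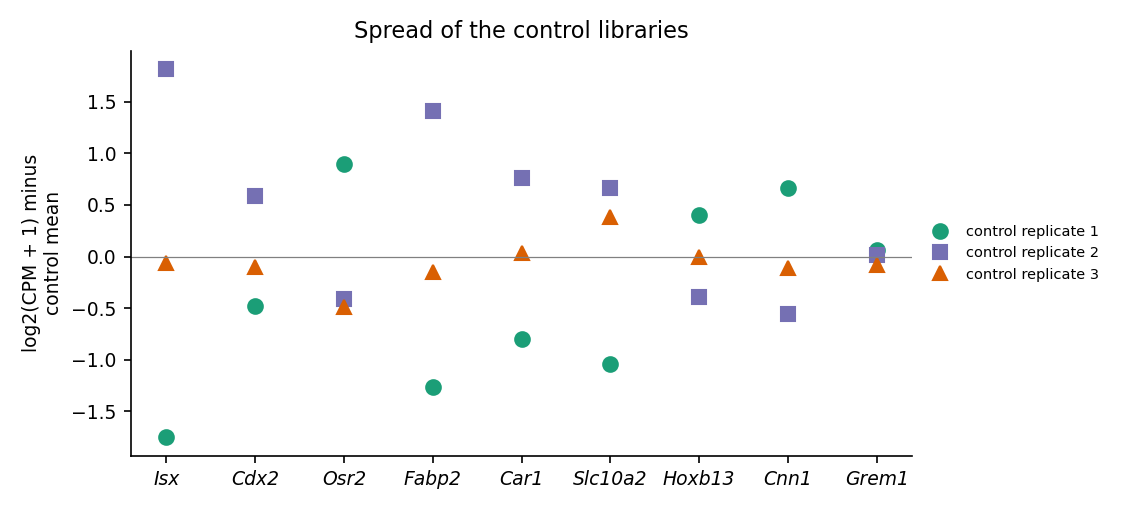
Deviation of each control library from the mean of the 3 control libraries in log2(CPM + 1), for the 3 factors and 6 other genes chosen after their values were seen. Control replicate 2 (square) is the highest and control replicate 1 (circle) the lowest for Isx, Cdx2, Fabp2, Car1 and Slc10a2, and the reverse holds for Hoxb13 and Cnn1, while Osr2 is highest in control replicate 1.

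A list of 54 transcription factors was made of factors of the intestinal epithelium and its hormone cells, together with Osr1, Osr2 and others also known from mesenchyme. Of these, 17 had a row, 14 of these were tested, and 7 were called higher and 7 lower in PFOA. Their median log2 fold change was 0.17, against -0.03 over all tested rows. Beside the 3 factors, the abundant members were Nr1h4, the bile acid receptor FXR, at 3.29-fold, Spdef, a goblet cell factor, at 3.73-fold and Tbx3, a T-box factor, at 2.67-fold higher. Gata5, a zinc finger factor of the intestinal epithelium, had 60, 90 and 58 counts in PFOA and 8, 15 and 14 in control, and was 5.80-fold higher. Foxa2, a forkhead factor of the gut endoderm, fell, with 159, 132 and 162 counts in PFOA and 832, 585 and 658 in control. Isl1, a LIM homeobox factor of hormone cells and neurons, was 6.06-fold lower. Cdx1, the close relative of Cdx2, had no row and was not analysed here.

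Osr2 lay on the other side of 0 from its relative Osr1 and from most mesenchyme factors that were tested. Of 49 odd-skipped and gut mesenchyme factors, 10 had a row, 9 were tested, and 3 were called higher and 6 lower in PFOA, with a median log2 fold change of -1.15. This list and the one above share 5 rows, Osr2 and Osr1 among them. Osr1 had 144, 69 and 125 counts in PFOA and 298, 161 and 287 in control, so that it fell by 1.07 ± 0.39 on the log2 scale (SE, 3 libraries each; edgeR adjusted p = 0.0263). That call ended without PFOA replicate 2 (edgeR adjusted p = 0.0828), without PFOA replicate 3 (edgeR adjusted p = 0.0578) and when only protein-coding rows were fitted (edgeR adjusted p = 0.0592). The row that merges Pitx1, a paired-type homeobox factor of hindlimb and pituitary, with a predicted gene was 2.21-fold lower, a call that ended when PFOA replicate 2, PFOA replicate 3 or any control library was left out (edgeR adjusted p between 0.0506 and 0.0935) and on protein-coding rows (edgeR adjusted p = 0.0841). Its log2 fold change was -1.15, and -1.78 without PFOA replicate 1. Wt1, a zinc finger factor of mesothelium, was 4.26-fold higher, with 34, 45 and 45 counts in PFOA and 1, 18 and 11 in control. Its log2 fold change of 2.08 was 1.42 without control replicate 1 and 2.78 without control replicate 2, and the call ended without control replicate 3 (edgeR adjusted p = 0.0599).

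Markers of the other cells of the colon wall were checked beside Osr2. Of 12 fibroblast markers 2 had a row, Grem1 and Pi16, both called lower, with a summed level of 144 to 355 CPM in PFOA and 655 to 671 CPM in control. Of 8 smooth muscle markers 1 had a row, Cnn1, called lower, at 1478 to 2094 CPM in PFOA and 2553 to 5922 CPM in control. Of 6 mesothelial markers 2 had a row, Wt1 and Upk1b, both called higher, at 33.1 to 38.6 CPM in PFOA and 5.36 to 16.9 CPM in control. The Upk1b call ended without control replicate 1 or 3 (edgeR adjusted p = 0.0515 and 0.0642). Gfap, a glial filament protein, was the row of 11 neuron and glia markers, at 49.9 to 60.7 CPM in PFOA and 16.0 to 18.6 CPM in control, and it was called higher. Of 7 adipocyte markers 4 had a row, all higher by mean count and 2 of them tested and called higher, at 69.2 to 520 CPM in PFOA and 9.52 to 37.7 CPM in control. The most abundant of these was Cidec, a lipid droplet protein, with 366, 144 and 315 counts in PFOA and 20, 49 and 18 in control, 9.87-fold higher and without overlap. Cfd, the adipocyte protease adipsin, had 225, 3 and 522 counts in PFOA and 32, 25 and 3 in control, and its call ended without PFOA replicate 3 or any control library (edgeR adjusted p between 0.0687 and 0.0915); it was also lost under the replicate block (edgeR adjusted p = 0.22) and under limma-voom, whose adjusted p was 0.289. Adipoq, a hormone of fat cells, had 54, 0 and 150 counts in PFOA and 1, 3 and 0 in control, and Plin1, another lipid droplet protein, had 61, 0 and 128 in PFOA and 4, 1 and 0 in control. Nkg7, the row of 11 immune markers, was called higher, at 27.1 to 30.0 CPM in PFOA and 10.2 to 11.7 CPM in control. Lyve1, the row of 6 endothelial markers, was called lower, at 49.9 to 126 CPM in PFOA and 221 to 286.5 CPM in control. Of 12 epithelial markers 3 had rows, Muc2, Car1 and Slc26a3. The 3 Muc2 rows and the Car1 row were called higher and the Slc26a3 row lower. Their summed level was 162800 to 314500 CPM in PFOA and 69120 to 115200 CPM in control. The 3 Muc2 rows, all of a single goblet cell gene, made up most of that sum, and the other epithelial markers had no row. The sum therefore gives no level of the epithelium as a whole. The part of these cell types in the Osr2 counts was not tested.

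Genes around vitamin A and Isx went both ways. Of 43 such genes 12 had a row, all were tested, and 7 were called higher and 5 lower in PFOA, Isx included among the higher, with a median log2 fold change of 1.05. Bco1, the carotenoid-cleaving enzyme that Isx is known to repress, had 22, 25 and 29 counts in PFOA and 49, 78 and 93 in control, and was 2.80-fold lower, with no overlap between the groups. Scarb1, its other known target, had no row and was not analysed here. Rbp2, which carries retinol inside enterocytes, was 4.63-fold lower, and Rbp7, another retinol carrier, had 2, 2 and 3 counts in PFOA against 21, 25 and 31 in control.

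Of the enzymes on this list that oxidise retinol or retinal, Adh1 and Adh7 were lower and Dhrs9 and Aldh1a1 higher in PFOA. Adh1, an alcohol dehydrogenase, had 1762, 1798 and 2198 counts in PFOA against 30149, 19641 and 23320 in control, 12.4-fold lower, and Adh7, a related enzyme, was 22.2-fold lower. The fitted log2 fold change of Adh7 was -4.42, and -3.79 without PFOA replicate 2, where its count was 0. Dhrs9, a dehydrogenase that also oxidises retinol, had 249, 68 and 65 counts in PFOA against 19, 62 and 33 in control, 3.61-fold higher (edgeR adjusted p = 0.0314, 3 libraries each). That value rests on PFOA replicate 1, since the log2 fold change was 1.85 with it and 0.75 without it (edgeR adjusted p = 0.164). The Dhrs9 call also ended without control replicate 1 or 3 (edgeR adjusted p = 0.123 and 0.107) and with the replicate block (edgeR adjusted p = 0.101). Aldh1a1, a retinal dehydrogenase that makes retinoic acid, had 4386, 6510 and 7573 counts in PFOA against 849, 1743 and 1621 in control, 4.49-fold higher. Lrat, which esterifies retinol, was 2.15-fold higher, and Cyp26b1, which degrades retinoic acid, was 1.99-fold higher. The Cyp26b1 call ended without PFOA replicate 1 or 2 or control replicate 2 or 3 (edgeR adjusted p between 0.0625 and 0.11) and when libraries were scaled by listed totals alone (edgeR adjusted p = 0.0814). Stra6l, a membrane receptor for retinol-binding protein, was 2.44-fold higher. The cholesterol importer gene Npc1l1 was 7.09-fold higher, with 19, 44 and 77 counts in PFOA against 6, 5 and 9 in control.

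Of 36 genes reported elsewhere to be bound or regulated by Cdx2, 17 had a row. They hold 19 rows, 18 of them tested, of which 13 were called higher and 5 lower in PFOA, Isx included among the higher, with a median log2 fold change of 1.62. The control order of Isx given above was found in 63.2% of the 19 rows. It was found in 25.2% of all tested rows and 32.6% of those higher in PFOA. Among the higher rows averaging at least 100 CPM in control the share was 40.3%. The 19 rows include Isx, which set the order, and 3 rows of Muc2, and the difference between these shares was not tested. The 3 adjacent rows of Muc2, the gel-forming mucin of goblet cells, were called higher, between 2.99-fold and 3.14-fold, but each call ended without control replicate 1 (edgeR adjusted p between 0.0617 and 0.0828). Of these calls, 2 also ended without control replicate 3 (edgeR adjusted p = 0.0512 and 0.0551) and the other without PFOA replicate 3 (edgeR adjusted p = 0.0544). Car1 had 125029, 39638 and 50026 counts in PFOA against 5727, 17063 and 10999 in control, and was 6.80-fold higher. Its size rests on PFOA replicate 1, without which the log2 fold change of 2.77 was 1.94. B4galnt2, which completes the Sda blood group sugar, was 5.03-fold higher. In the brush border, the alkaline phosphatase gene Alpi was 18.9-fold and the disaccharidase gene Sis 41.4-fold higher, and the cytochrome P450 gene Cyp2c65 was 57.2-fold higher. For Sis the fitted value, 5.34 on the log2 scale, was 4.69 without PFOA replicate 3.

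Other genes of the same list ran against Cdx2. Slc26a3, the chloride-bicarbonate exchanger of the colon surface, had 18783, 6770 and 7256 counts in PFOA against 44864, 60351 and 56990 in control. Its log2 fold change of -2.21 was -3.0 without PFOA replicate 1, the PFOA library with its highest count. Slc15a1, the peptide transporter, was 14.2-fold lower, and Gcg, the proglucagon gene, Cldn1, a tight junction claudin, and Tff3, a goblet cell trefoil peptide, were 2.33-fold, 2.83-fold and 2.06-fold lower. Of 16 small intestinal epithelial markers, 8 had a row, 7 called higher and 1 lower, and 4 of these rows also stand on the list of genes reported for Cdx2. Their summed level was 6927 to 21310 CPM in PFOA and 729 to 1783 CPM in control. Reg3b, the most abundant of these rows, had 8023, 1865 and 905.5 CPM in PFOA replicates 1, 2 and 3. The spread of the PFOA sum therefore depends in part on that gene. Of 24 stomach genes 2 had a row, and both fell: Ctse, a cathepsin, was 4.38-fold lower, and Vsig1, a junction protein, had 2, 0 and 0 counts in PFOA against 67, 47 and 38 in control.

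**Figure D4:**
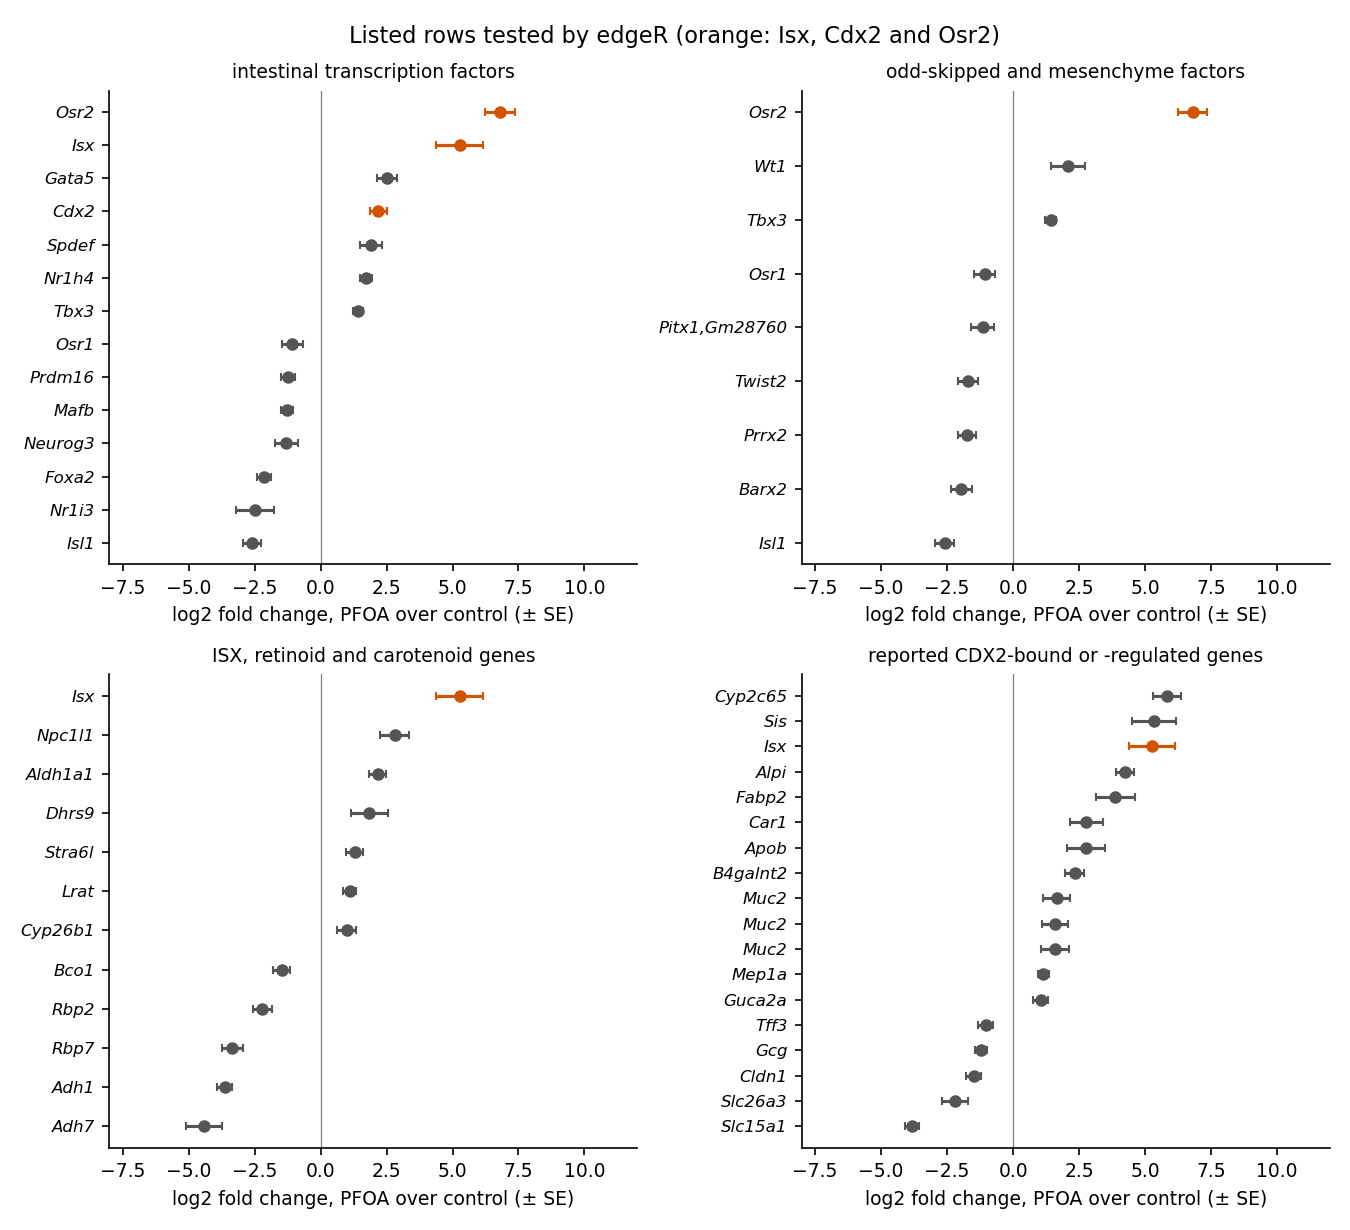
Fitted log2 fold change of PFOA over control with its SE (n = 3 per group) for the tested rows of 4 gene lists, with Isx, Cdx2 and Osr2 in orange. Osr2, drawn on both factor lists, lies at 6.80, Isx at 5.27 and Osr1 at -1.07, and the genes reported for Cdx2 range from -3.83 for Slc15a1 to 5.84 for Cyp2c65.

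The genes whose profile over the 6 libraries was most like each factor differed between the 3. Likeness was the root mean square difference between log2(CPM + 1) profiles, each centred on its own mean, over 999 other rows with a single descriptive symbol, and it reflects the difference between the groups as well as the spread within them. For Cdx2 the 4 nearest were Adora2b, an adenosine receptor gene, at 0.106, B4galnt2 at 0.133, Mettl7b, a methyltransferase-like gene, at 0.168 and Nqo1, a quinone reductase, at 0.199, against a median of 1.72. Adora2b had only 36, 25 and 32 counts in PFOA and 3, 7 and 4 in control, so its closeness depends on the 1 added to each CPM. B4galnt2 had 41973, 30268 and 29529 counts in PFOA and 4989, 9096 and 7101 in control, which follows Cdx2 in being highest in PFOA replicate 1 and in control replicate 2.

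For Isx the nearest was Prkg2, a cGMP-dependent protein kinase of the intestinal epithelium, at 0.471, against a median of 3.62. Prkg2 had 1069, 3356 and 3044 counts in PFOA and 15, 96 and 38 in control, and so it shared the order of Isx in both groups. Cyp3a44, a cytochrome P450, followed at 0.711, Malrd1, which is known in mice for its part in bile acid control, at 0.720 and Ces1g, a carboxylesterase, at 0.736. With 0, 8 and 1 counts in control, Cyp3a44 also depends on the 1 added to each CPM. Cyp3a44 and Ces1g belong to families of near-identical copies, whose reads can be counted for each other.

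For Osr2 the nearest were Nts, the gut peptide neurotensin, at 0.578, Slc51a, a subunit of the basolateral bile acid transporter, at 0.608, Prap1, a secreted gut protein, at 0.711 and Apol10a, an apolipoprotein L gene, at 0.837, against a median of 3.93. In control, Nts had 0, 0 and 0 counts, Prap1 2, 3 and 0 and Apol10a 2, 0 and 0. The closeness of these genes to Osr2 therefore depends on the 1 added to each CPM. The fitted log2 fold change of Nts was 11.1, against 6.80 for Osr2. Slc51a had 1363, 1670 and 1458 counts in PFOA and 17, 4 and 2 in control, and like Osr2 it was highest among controls in replicate 1. Isx and Osr2 differed from each other by 1.51, and Cdx2 differed from Isx by 2.00 and from Osr2 by 2.41, so that each factor had other genes closer to it than the remaining 2 factors were.

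Of the 6 listed rows nearest to the factors, 1 on each side of each, 4 were higher in PFOA and 2 were lower. By mean count, 1035 of all 2033 rows were higher in PFOA. Whether rows beside a factor differ from that share was not tested, and 6 rows are too few to show it. Cdx2 lies in the ParaHox cluster, and its neighbour there, the pancreas and duodenum homeobox gene Pdx1, had no row. Urad, which encodes a urate-pathway decarboxylase and lies 7393 bases past the upstream end of the Cdx2 row, had 39, 16 and 32 counts in PFOA and 0, 4 and 0 in control, and was called higher, by 4.38 ± 0.89 on the log2 scale (SE, 3 libraries each; edgeR adjusted p = 0.0026). An assembled non-coding locus on the opposite strand, 2522 bases from the downstream end, had 7, 4 and 14 counts in PFOA and 22, 29 and 35 in control and was called lower. Plut, a long non-coding RNA beside Pdx1, was called lower as well, with 5, 6 and 3 counts in PFOA and 15, 31 and 20 in control.

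Near Isx, the non-coding Gm11033 on the opposite strand ended 38533 bases from the row and had 4, 6 and 13 counts in PFOA and none in control, too few to be tested. Rasd2, a Ras-family gene 305215 bases away on the other side, was called lower, with 378, 388 and 325 counts in PFOA and 1029, 1158 and 1245 in control. The listed rows nearest to Osr2 were far away. They were Erich5, a glutamate-rich protein gene 822167 bases away, with 16, 36 and 58 counts in PFOA and 3, 2 and 5 in control, and the non-coding Gm10384, 1567196 bases away on the other side, with 59, 35 and 48 in PFOA and 27, 27 and 20 in control. Both were called higher.

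**Figure D5:**
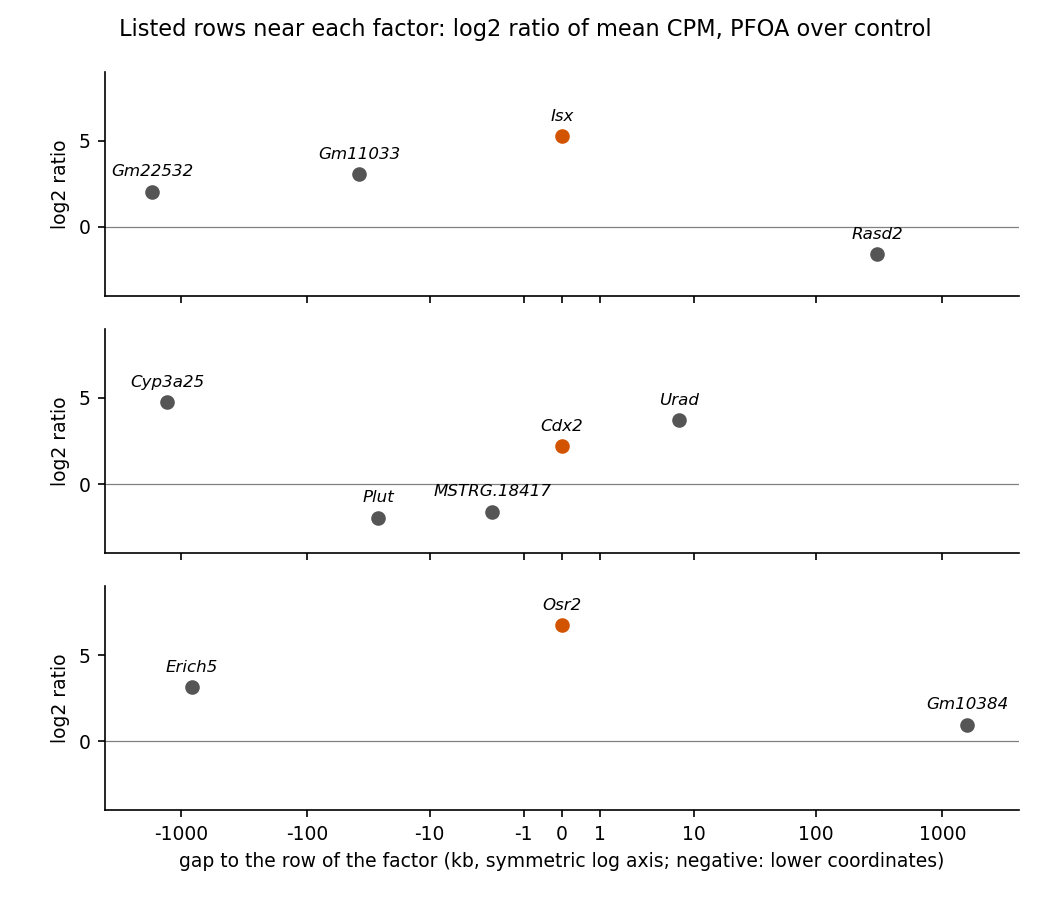
log2 ratio of mean CPM of PFOA over control (0.5 added to each mean) for the up to 3 listed rows nearest to each factor on either side within the axis range, by the gap in kb on a symmetric log axis, with the factor in orange at 0. Urad, Gm11033, Erich5 and Gm10384 lie above 0, as do the more distant Cyp3a25 and Gm22532, while Plut and the assembled locus beside Cdx2 and Rasd2 beside Isx lie below 0.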

How the data were processed

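RNA of mouse colon was sequenced in 3 PFOA and 3 control libraries prepared, per the labels' protocols, with a SMARTER kit for mRNA. HISAT2, HTSeq and mm10 are named in the submitters' processing notes, without versions. The authors deposited raw read counts per gene row, with positions and row lengths. How rows were selected, which tool assembled the loci and whether strand was used: not given in the sources used here. Hence reads of overlapping or antisense genes cannot be told apart.

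Counts were fitted with edgeR 4.0.16 (R 4.3.3): filterByExpr, TMM, glmQLFit and glmQLFTest, PFOA over control without covariates, two-sided, Benjamini-Hochberg adjusted over all tested rows at 0.05. SE is the absolute log2 fold change over the square root of F, and plain folds are ratios of mean CPM. The fit was tested on simulated counts with less spread between libraries and with most rows unchanged. That test therefore does not cover a table of rows selected for a difference. No replicate pair agreed within sampling noise (smallest chi-square per degree of freedom 24.7). Sequencing depth is unknown, which limits precision statements to the spread between libraries.

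The members and the 5 gene lists and 9 marker lists were chosen with earlier results of these data known, and no value of the selecting contrast is given as support. By rule, the text names the 3 factors, 4 rows most like each, all rows of a list or its 6 most abundant, and the nearest row on each side. Gata5, Foxa2, Wt1, Bco1, Rbp7, Adh7, Dhrs9, Cyp26b1, Npc1l1, Alpi, Sis, Cyp2c65, Slc15a1, Gcg, Cldn1, Tff3, Fabp2, Hoxb13 and Plut were named after their values were seen. Alternatives were DESeq2 1.42.0, limma-voom (limma 3.58.1), other scalings and filters, protein-coding rows, the replicate number as a block and each library left out. Not every gene named by this rule is reported here.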

Additional observations from a re-analysis of the deposited data

How the results depend on the processing

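The 3 factors kept a positive log2 fold change under every setting run. The settings were DESeq2, limma-voom, 4 other scalings, 2 other filters, protein-coding rows, the replicate block and each library left out. That sign could hardly turn, because the factors were chosen for this difference and their groups do not overlap. Only the sizes that follow describe how far the values depend on the processing. With each library left out in turn the log2 fold change ranged from 4.63 to 6.57 for Isx, from 1.83 to 2.50 for Cdx2 and from 6.43 to 7.34 for Osr2. The difference in log2 ratio ranged from 3.06 to 4.32 for Isx to Cdx2 and from 4.14 to 5.38 for Osr2 to Cdx2, and from -2.32 to 0.18 for Isx to Osr2, which turned its sign without control replicate 2. Scaling by listed totals alone moved the median log2 fold change of tested rows from -0.03 to -0.249 and the 3 factors to 5.12 for Isx, 1.98 for Cdx2 and 6.58 for Osr2. Protein-coding rows alone gave 1041 calls against 1608 because fewer rows were tested. Same-numbered libraries did not deviate together in all pairs (correlations 0.114, -0.03 and 0.102), and not every library correlated best with its own number. The main fit treated the libraries as unpaired, and these values cannot decide whether the numbers pair them. A fit with the replicate block called 1579 rows and gave 5.91 for Isx, 2.23 for Cdx2 and 6.85 for Osr2. No count of calls in the 5 gene lists moved by over 1.5 times under any of these settings.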
